A study of Homo sapiens with 24 samples.

Results

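Demethylase treatment of RNA pulled down with an antibody to N1-methyladenosine (m1A) was compared with the pulldown alone in HEK293T cells, a human embryonic kidney line, in which the ALKBH3 gene had been knocked out. The demethylase-treated libraries (KO_Demethyl, labelled as 2 replicates) came from ALKBH3 knockout cells, as did the immunoprecipitated libraries without demethylase (KO_IP, 2 replicates). Wild-type HEK293T cells gave the matching WT_Demethyl and WT_IP libraries, 2 replicates of each by the labels. Neither genotype received another treatment, and the whole series held 24 libraries. No label says whether the knockout was 1 clone or whether replicates came from separate cultures, so a p-value here reflects the spread among the libraries at hand, part or all of which may be technical. ALKBH3 itself had 0 windows in the tables, so they cannot check the knockout.

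The members were the 10-nt windows, placed every 5 nt along RefSeq transcripts, that stood at the same position in both deposited knockout tables. There were 28711 of these windows, of 85333 in the first table and 84559 in the second, and of 184965 distinct windows in the 4 windowed tables of the series. They formed 778 contiguous regions on 775 transcripts of 554 genes, and 541 of those genes had a symbol. A region held 23 to 104 windows, with a median of 34. Of the 778 regions, 349 (44.9%) began at the first nucleotide of the transcript and 617 (79.3%) within its first 100 nt. The demethylase-treated coverage of the 2 tables was the same in 28711 of 28711 windows after rescaling, whereas the IP coverage was equal in 730. The treated coverage therefore counts as 1 sample, set against 2 IP libraries, and agreement between the tables speaks of the IP libraries only.

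m1A carries a methyl group on the face of adenine that pairs with another base. Reverse transcriptase therefore tends to stop or misread at it, and an m1A site can leave a dip in coverage between shoulders on either side. A demethylase turns m1A back into adenosine, after which the enzyme can read through. ALKBH3 is a cellular demethylase of alkylated nucleic acids. In messenger RNA, m1A is known for lying near the start of the transcript and in the region around the start codon.

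The authors scaled each region so that its windows sum to about 200, so the tables hold the shape of coverage along a region and not its level. Coverage is given here as relative coverage, a window divided by the mean of the region's shared windows in the same library, where 1 is the region's mean. A gain in 1 place is then always matched by a loss elsewhere in the region. Values within a region were whole multiples of a smallest value, within a relative tolerance of 1e-06. The multiple at the highest window, called steps here, is the smallest read count that could give the profile if windows count whole reads. The depth is not otherwise given. The treated profile had a median of 160 steps (lowest 1), against 228.5 (lowest 24) in the first IP library and 208.5 (lowest 17) in the second. Numbers above 20000 steps, reached by 3 treated profiles, are not resolved at this tolerance.

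For the only microRNA precursor whose values are described, hsa-mir-3648-2, the mature product is shown because its bases lie on the rising 5′ side of the region. The mature hsa-miR-3648 (RefSeq, GRCh38.p14, chromosome 21, 21 nt) has its seed, bases 2 to 8, in capitals.
hsa-miR-3648: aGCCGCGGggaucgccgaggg
It occupies nt 28 to 48 of the 180-nt hairpin, and the second hairpin copy, hsa-mir-3648-1, shares it, so reads of the copies cannot be told apart. Over its 6 windows relative coverage was 0.0812 to 0.608 after demethylase, against 0.0461 to 0.651 in the first IP library and 0.0322 to 0.644 in the second. The log2 ratio of treated over IP lay between -0.19 and 0.37 against the first IP library and between -0.20 and 0.53 against the second. Over the whole region, 1.88% and 2.21% of coverage would have to move to turn the treated profile into each IP profile. Between the IP profiles it was 0.603%.

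FADD, CCN1, H1-10 and EGLN1 are described first. After demethylase their coverage lay further 3′, lay further 5′, gathered in the middle of the region, or peaked where both IP libraries had a dip. These 4 genes were singled out after their values were seen.

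FADD, an adaptor protein of death receptors, had coverage that lay towards the 3′ end of its region after demethylase. Over nt 184 to 253 relative coverage was 0.0671 after demethylase, against 1.15 in each IP library, a log2 ratio of -3.24 and -3.22. Over nt 279 to 298 it was 3.68 after demethylase, against 1.26 and 1.42 in the IP libraries. The IP libraries were highest between nt 259 and 278 and lower on either side, and the treated profile was at 0 up to nt 243. Both stretches were chosen as 2-fold or more from both IP libraries, so the treated value lies outside the IP values by choice. The treated profile had 80 steps, against 128 and 172 in the IP libraries.

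CCN1, a secreted matrix protein, showed the opposite arrangement at greater depth, with 503 steps after demethylase against 315 and 284 in the IP libraries. Over nt 26 to 85 relative coverage was 1.78 after demethylase, against 0.627 and 0.734 in the IP libraries. Over nt 141 to 225 it was 0.461 after demethylase, against 1.46 and 1.34 in the IP libraries. These 2 stretches were chosen in the same way, so their direction against both IP libraries is given by the choice.

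H1-10, a linker histone variant, had the deepest profile of the 4, with 5700 steps after demethylase against 2088 and 1756 in the IP libraries. Its coverage gathered in the middle of the region: the central part, the middle of 3 equal parts, held 65.8% of coverage after demethylase, against 42.6% and 42.7% in the IP libraries. Over nt 356 to 430 relative coverage was 0.403 after demethylase, against 1.03 and 1.05 in the IP libraries. The authors' peak over this region had a fold enrichment of 1.48 and 1.26 in the 2 peak lists.

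EGLN1, the prolyl hydroxylase that marks hypoxia-inducible factors for destruction, had a dip in both IP libraries that the treated profile lacked. Over nt 2902 to 2956 relative coverage was 2.07 after demethylase, against 0.627 and 0.748 in the IP libraries. Just 5′ of it, over nt 2862 to 2886, it was 0.44 after demethylase, against 1.37 and 1.56 in the IP libraries. These stretches were also chosen as 2-fold or more from both IP libraries. The treated profile peaked in the dip and was low on its 5′ shoulder, and was not level across them. This profile rested on 68 steps after demethylase, against 189 and 138 in the IP libraries. Neither test of where coverage lay within a region, given further on, called EGLN1.

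**Figure D1:**
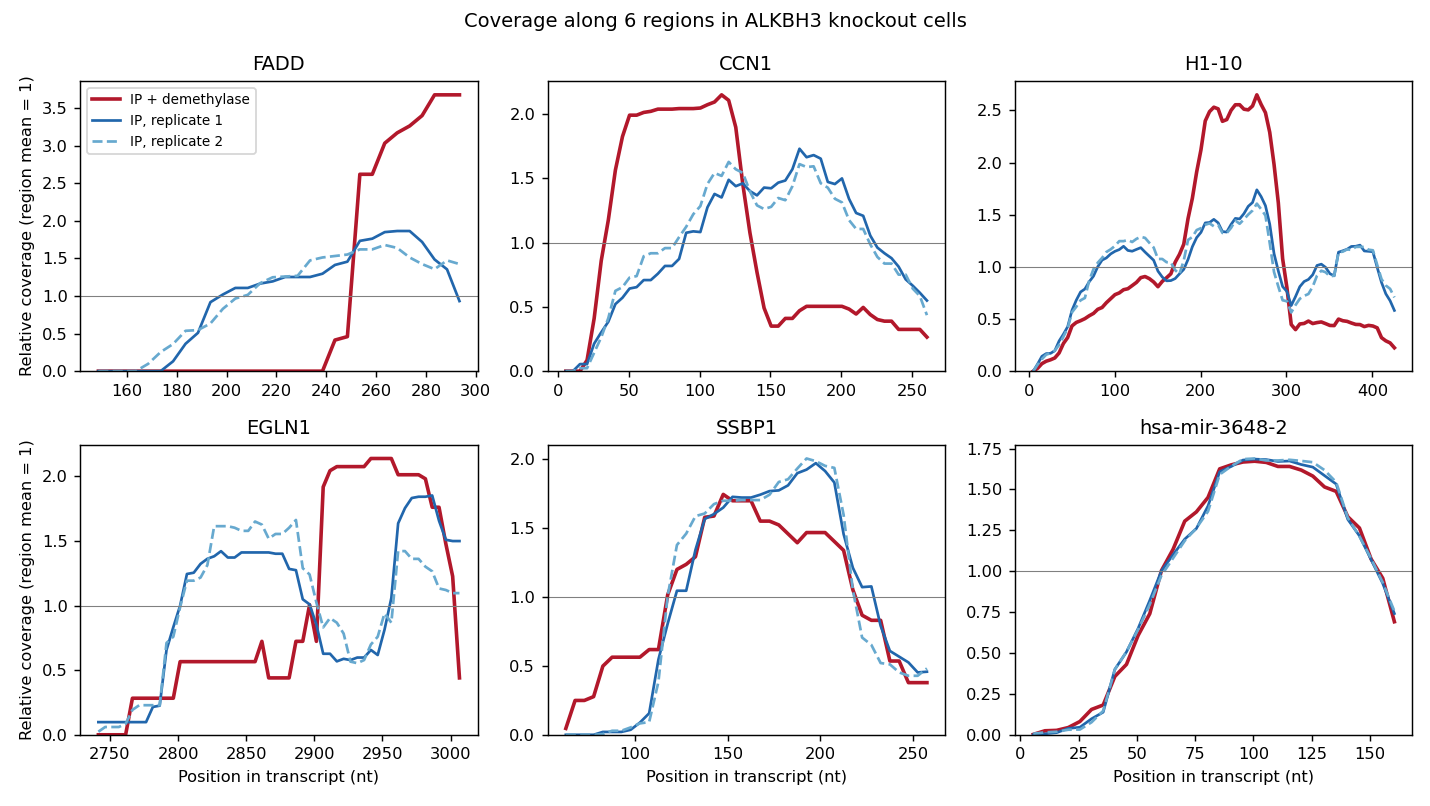
Relative coverage (vertical axis, region mean = 1) against position in the transcript in nt (horizontal axis) for 6 regions in ALKBH3 knockout cells, with 1 line each for demethylase-treated RNA and the 2 IP libraries. The treated line stands at 0.0671 on average over nt 184 to 253 of FADD and at 2.07 over the IP dip at nt 2902 to 2956 of EGLN1, while the 3 lines of hsa-mir-3648-2 nearly coincide.

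In most regions the shape of the treated profile differed from each IP library by more than the IP libraries differed from each other. The difference between 2 profiles was measured as the percent of a region's coverage that would have to move to turn the first into the second. Its median over 778 regions was 8.68% between treated and the first IP library, 8.61% between treated and the second, and 4.78% between the 2 IP libraries. The treated profile was further from both IP libraries than these were from each other in 560 regions, a percentage of 72. Among the 628 regions with 50 or more treated steps it was 452, again 72%, and among the 336 with 200 or more steps it was 264 (78.6%). Differences were larger where steps were few: Spearman's rho between treated steps and the treated difference was -0.35 against the first IP library over 778 regions, a description over regions that share libraries.

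The largest excess of the treated difference over the IP difference was seen for RANGRF, a factor that binds the small GTPase Ran. Its treated profile differed from the IP libraries by 83.6% and 89.2%, which themselves differed by 9.25%, but it held 20 steps. APPL2, an endosomal adaptor, followed with 73.3% and 62.3%, against 12.8% between the IP libraries and 6 treated steps. FADD differed by 48.5% and 51.3%, against 7.12%. PLCG1, a phospholipase C, differed by 42.6% and 52.2%, against 9.61%, with 51 steps. LONRF3 came next with 35.4% and 33.5%, against 3.58%, on 4 steps. Of the 5 regions, 3 thus rested on 20 steps or fewer.

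At the other end were the 5 regions chosen for the smallest excess, in which the treated profile was nearer to 1 IP library than the IP libraries were to each other. RRM2, a subunit of ribonucleotide reductase, differed by 15.5% from the first IP library and 3.70% from the second, which were 15.0% apart, on 408 steps. PTTG1IP differed by 4.50% and 16.3%, with 15.7% between the IP libraries. THRA, a thyroid hormone receptor, and PPP2R5D, a phosphatase subunit, were also among the 5, with the IP libraries 17.5% and 17.7% apart. In these regions the treated profile lay closer to 1 of the IP libraries than the other IP library did.

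**Figure D2:**
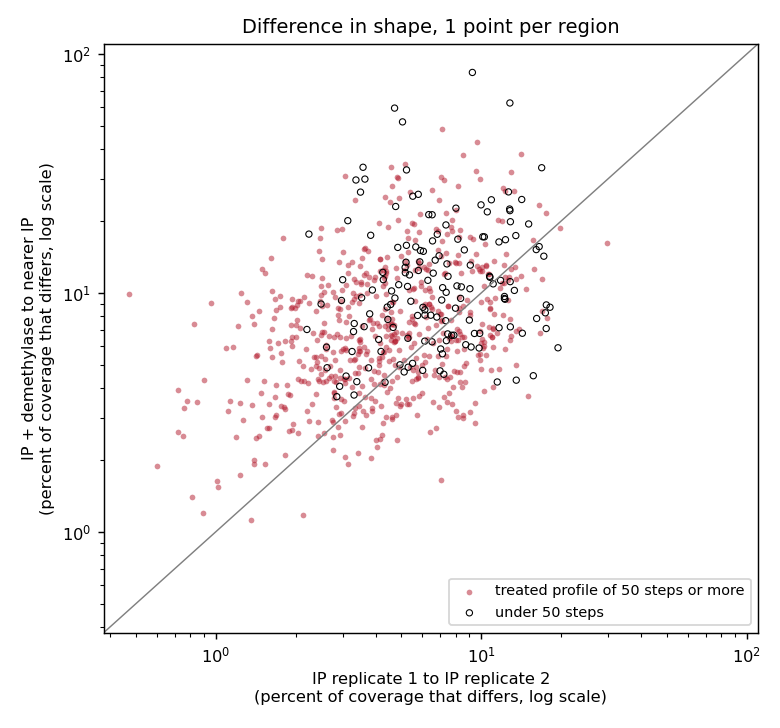
Percent of coverage that differs between the treated profile and the nearer IP library (vertical, log scale) against that between the 2 IP libraries (horizontal, log scale), 1 point per region, filled where the treated profile had 50 or more steps. Of 778 points 560 lie above the diagonal line of equality.

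Single windows were then compared after leaving out those below 0.1 of the region's mean in every library, which kept 26464. A window was counted as higher or lower when it differed 2-fold or more from both IP libraries on the log2(relative coverage + 0.1) scale, which understates changes of low windows. Higher windows numbered 422, or 1.59%, and lower windows 1258, or 4.75%. The 2 IP libraries were themselves 2-fold or more apart, in either direction, in 514 windows, or 1.94%. Of the 1258 lower windows, 441 had no treated coverage at all. In regions with 50 or more treated steps, 312 of 21735 windows were higher (1.44%), 811 were lower (3.73%) and 290 had the IP libraries apart (1.33%). In regions with fewer steps, 110 of 4729 were higher (2.33%), 447 were lower (9.45%) and 224 had the IP libraries apart (4.74%). Lower windows were thus more frequent where the treated profile was thin, and the part of depth in them was not tested.

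The limma test of treated against IP at each window, with Benjamini-Hochberg adjustment over 26464 windows, called 0 higher (0%) and 0 lower (0%). An unadjusted p under 0.05 was reached by 6743 windows (25.5%), and the smallest adjusted p was 0.0947. With 1 treated sample this test assumes that treated RNA varies like the IP libraries and has 1 residual degree of freedom beside the prior. The runs of windows named in what follows are therefore descriptions by fold, with both IP libraries given, and not test results.

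Higher windows lay at the ends of regions. Each region was split into 10 equal parts from its 5′ end. In part 1, at the 5′ end, 9.63% of windows were higher, 11.8% were lower, and the IP libraries were apart in 13.4%. In part 6 0% were higher, 1.47% were lower and the IP libraries were apart in 0.334%. In part 10, at the 3′ end, 2.17% were higher, 6.07% were lower and the IP libraries were apart in 1.02%. Windows with the IP libraries apart were more frequent than higher windows in parts 1 to 6, and less frequent in parts 7 to 10. They were more frequent than lower windows in part 1, and less frequent in parts 2 to 10. The counts are unlike: IP libraries apart takes either direction of 1 comparison. Higher and lower each take 1 direction and must hold against both IP libraries. By position in the transcript, windows that began in nt 1 to 50 were higher in 4.17% and lower in 9.63%, those from nt 51 to 100 in 1.76% and 4.68%, and those from nt 101 to 200 in 0.864% and 3.48%. The shares were larger again from nt 201 to 500, at 1.59% and 5.02%, and were 1.30% and 3.75% from nt 501 on.

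**Figure D3:**
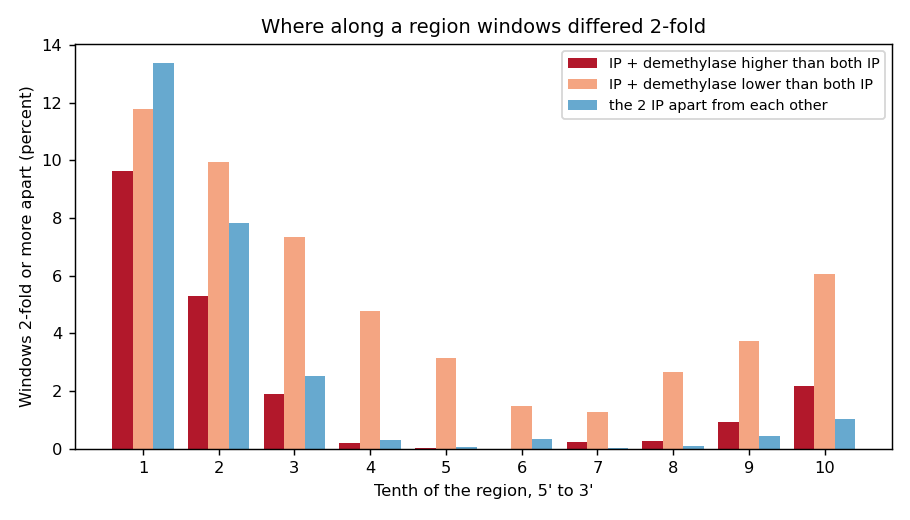
Percent of windows (vertical axis) in each of 10 equal parts of a region from 5′ to 3′ (horizontal axis) that were 2-fold or more higher after demethylase than both IP libraries, 2-fold or more lower than both, or 2-fold or more apart between the IP libraries. Higher windows fall from 9.63% in part 1 to 0% in part 6, and windows with the IP libraries apart from 13.4% to 0.334%.

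Windows were joined into runs of 3 or more neighbours that differed in the same direction. Higher runs were found in 35 genes (6.32% of 554) and 43 regions (5.53%), and lower runs in 71 genes (12.8%) and 88 regions (11.3%). Either kind was found in 84 genes (15.2%), and 24 regions (3.08%) had runs in both directions. In 12 of the 24 the higher run lay 3′ of the lower one, as in FADD, and in the other 12 it lay 5′, as in CCN1.

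The 12 genes with the highest runs are given next. SSBP1, the single-stranded DNA binding protein of mitochondria, had relative coverage of 0.575 over nt 83 to 112 after demethylase, against 0.0645 and 0.0575 in the IP libraries. Its log2 ratios were 2.10 and 2.12, on 189 treated steps. PTCD3, a protein of the small mitochondrial ribosomal subunit, had 0.885 over nt 75 to 94 after demethylase, against 0.14 and 0.111. MCM6, a subunit of the replicative helicase, had 0.615 over nt 49 to 68 after demethylase, against 0.0521 and 0.129. In all 3 the run was at or near the 5′ edge of the region, where the IP libraries were lowest.

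NANS, the synthase of sialic acid, had 1.08 over nt 65 to 89 after demethylase, against 0.199 and 0.101 in the IP libraries, on 227 steps. SGTA, a co-chaperone of tail-anchored membrane proteins, had 0.753 over nt 36 to 65 after demethylase, against 0.223 and 0.101. C2CD2L had 1.42 over nt 154 to 188 after demethylase, against 0.199 and 0.34. A treated value above both IP values was required of every higher run. LRWD1, which binds the origin recognition complex, and SERINC2 had IP libraries that were far apart, with 0.0231 and 0.245 in LRWD1 against 0.938 after demethylase. SERINC2 had 1.09 after demethylase, against 0.0643 and 0.297. NECAB3 and STK40 had log2 ratios of 1.83 and 2.24, and of 1.55 and 2.18, on 23 and 46 treated steps. RANGRF and APPL2 completed the 12, with 4.79 each after demethylase, on 16 and 6 steps.

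Of the 10 genes with the lowest runs, 6 had no treated coverage over the run. RANGRF had relative coverage of 0 over nt 31 to 140 after demethylase, against 1.21 and 1.29 in the IP libraries. APPL2 had 0 over nt 142 to 211, against 1.25 and 1.06. LONRF3, BID and RBM18 also stood at 0 over 8, 8 and 4 windows, on 4, 2 and 14 treated steps. UFSP1, a protease of the ubiquitin-like modifier UFM1, had 0 over nt 170 to 209 after demethylase, against 0.715 and 0.669, on 36 steps. At 2 to 20 steps a value of 0 may be missing depth, and the part of depth in it was not tested.

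PLCG1 had 0.0493 over nt 43 to 122 after demethylase, against 0.901 and 1.07 in the IP libraries. DPCD had 0.0244 over nt 121 to 140 after demethylase, against 0.868 and 0.921. Like FADD, these genes kept some treated coverage in the run.

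**Figure D4:**
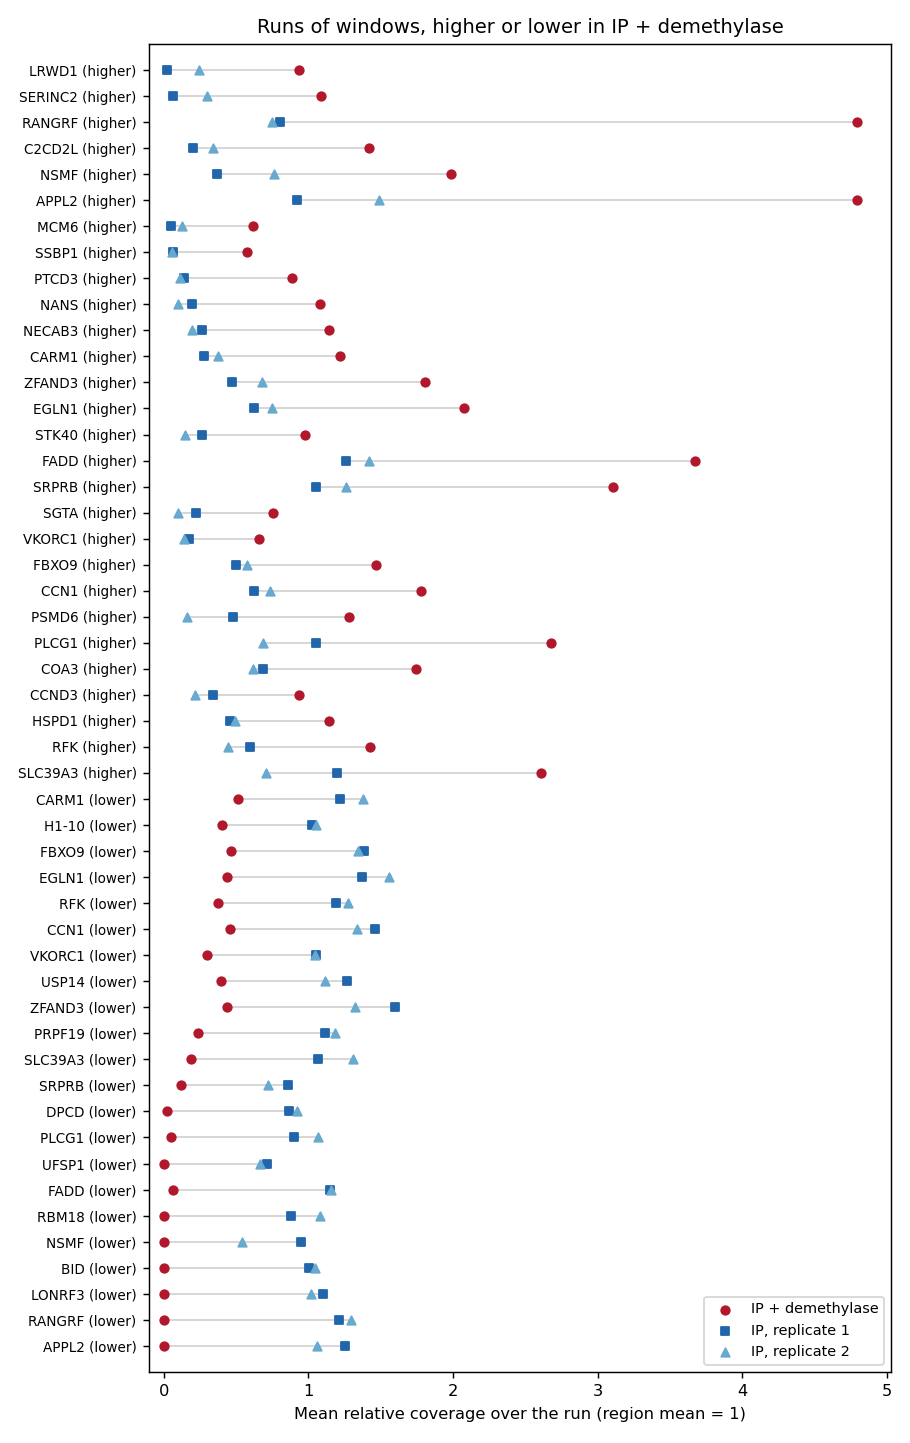
Mean relative coverage over a run (horizontal axis, region mean = 1) for runs of the named genes and of genes chosen after their values were seen, 1 row each, with the gene and the direction of the run beside the row and 1 point each for treated RNA and the 2 IP libraries. The treated point of SSBP1 stands at 0.575, right of IP points at 0.0645 and 0.0575, and that of PLCG1 at 0.0493, left of IP points at 0.901 and 1.07, in its lower run.

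Other profiles with runs in both directions were added to these after their values were seen. FBXO9, an F-box subunit of ubiquitin ligases, had 1.47 over nt 26 to 65 after demethylase, against 0.502 and 0.574 in the IP libraries. Over nt 136 to 200 it had 0.466 after demethylase, against 1.38 and 1.34, on 617 steps. CARM1, an arginine methyltransferase, had 1.22 over nt 83 to 122 after demethylase, against 0.277 and 0.374, on 425 steps. FBXO9 and CARM1 thus shared the 5′ arrangement of CCN1. ZFAND3, a zinc finger protein, did so further into its transcript, with 1.81 over nt 283 to 322 after demethylase, against 0.47 and 0.68 in the IP libraries. SRPRB, a subunit of the signal recognition particle receptor, had the arrangement of FADD on 78 steps. It had 3.11 over nt 365 to 384 after demethylase, against 1.05 and 1.26.

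Functional groups were read against the share of all 541 genes with a symbol: 34 had a higher run, 70 a lower run and 458 no run. The 7 cytosolic ribosomal protein genes measured, such as RPLP1 and RPS28, had 0 runs, and the treated profile was further from both IP libraries in 11 of their 11 regions, where all genes had 560 of 778. Their median difference was small, 4.74% to the nearer IP library against 1.91% between the IP libraries, where all genes had 7.22% and 4.78%. The 9 listed mitochondrial ribosomal protein genes and the 7 listed translation factor genes also had 0 runs, with the treated profile further away in 7 of 9 and 3 of 7 regions. So had the 11 genes of oxidative phosphorylation, the 5 of chromatin modifiers (4 of 8 regions further away), the 5 of tubulin and actin and the 4 of oxidative stress. The lists go by gene symbol and miss members of these families. PTCD3, with a higher run, and GSPT1, a translation termination factor with runs in both directions, were not on them.

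Splicing factors had lower runs in 3 of 15 genes and higher runs in 0. PRPF19, a ubiquitin ligase of the spliceosome, had 0.238 over nt 41 to 110 after demethylase, against 1.11 and 1.18 in the IP libraries, on 236 steps. PRPF8, the core protein of the spliceosome, and RBM18 were the others. Of the 5 chaperone genes 1 had a higher run: HSPD1, the mitochondrial chaperonin, had 1.14 over nt 186 to 215 after demethylase, against 0.458 and 0.493, on 799 steps. Of the 4 proteasome genes 1 had a higher run: PSMD6, a regulatory subunit, had 1.28 over nt 164 to 188 after demethylase, against 0.476 and 0.158.

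Of the 3 genes on the list of cell cycle and DNA replication, 2 had higher runs, MCM6, on 39 steps, and CCND3. This list also goes by symbol and leaves out other measured genes of these processes, such as CDT1 and RRM2. Its share is therefore not that of the processes. CCND3, a D-type cyclin, had 0.932 over nt 44 to 63 after demethylase, against 0.338 and 0.216 in the IP libraries, on 34 steps. Of the 4 genes of ubiquitin enzymes, 1 had a lower run: USP14, a deubiquitinase of the proteasome, had 0.393 over nt 220 to 279 after demethylase, against 1.26 and 1.11, on 292 steps. SLC39A3, a zinc transporter, was the only 1 of 3 solute carriers with runs, in both directions. Over nt 72 to 141 it had 0.192 after demethylase, against 1.07 and 1.31 in the IP libraries. H1-10 was the only 1 of 4 histone genes with a run. Among lists with fewer than 3 genes measured, DDX5, an RNA helicase, had a lower run. The lists hold 15 genes or fewer each, and 0 genes of RNA methylation were measured.

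Where coverage lay within a region was then compared with limma on 1 value per region. As for the windows, treated RNA is 1 sample, so the adjusted p-values rest on the spread between 2 IP libraries and assume that treated RNA varies alike. For the share of coverage in the central part, on the log2 ratio to the share in the outer parts, 1 region was higher after demethylase (0.129% of 778) and 13 were lower (1.67%). An unadjusted p under 0.05 was reached by 195 regions (25.1%). The higher region was that of H1-10, with a log2 change of 1.34 and a standard error of 0.0746 (limma, adjusted p = 0.0435). FADD had the smallest adjusted p, 0.00749 (limma), with 1.38% of coverage in the central part after demethylase, against 40.2% and 40.9% in the IP libraries. FADD was also the only region of the 14 that remained called when the test was restricted to the 628 regions with 50 or more treated steps. Regions with fewer steps, such as those of RANGRF, APPL2 and BID, were left out there and not retested. Others, such as H1-10 and CHPF2, were retested and not called. With coverage as deposited, 1 of the 14 remained, a RANGRF region. That setting takes each table's own windows, so the central part can differ between the 2 IP libraries and adds to their spread.

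The other lower regions lay on 10 genes. CHPF2, an enzyme of chondroitin synthesis, had 13.8% of coverage in the central part after demethylase, against 37.9% and 36.1% in the IP libraries, on 189 steps. NDFIP1, an adaptor of ubiquitin ligases, had 24.8% after demethylase, against 44.8% and 45.0%, on 199 steps. COA3, an assembly factor of mitochondrial complex IV, had 35.9% after demethylase, against 55.0% and 55.5%, on 172 steps. These genes were picked among the called ones, so a treated share below both IP shares is no further result. The others included SRPRB, SLC39A3, BID, APPL2 and 3 transcripts of RANGRF, whose isoforms repeat a signal.

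The mean position of coverage moved towards the 3′ end in 8 regions (1.03% of 778) and towards the 5′ end in 5 (0.643%), with an unadjusted p under 0.05 in 200 (25.7%). PRPF19 had its mean at nt 179.8 after demethylase, against nt 142.2 and 137.5 in the IP libraries, a shift of 39.9 nt with a standard error of 3.37 (limma, adjusted p = 0.0434). FADD shifted by 29.4 nt (limma, adjusted p = 0.0455). The other 6 regions that moved 3′ were 3 transcripts of NSMF and 3 of RANGRF. These transcripts were picked as called, so a treated mean 3′ of both IP means is no further result.

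Towards the 5′ end, CCN1 had its mean at nt 107.2 after demethylase, against nt 151.8 and 147.1 in the IP libraries, a shift of -42.3 nt with a standard error of 3.37 (limma, adjusted p = 0.0390). FBXO9 had its mean at nt 99.97 after demethylase, against nt 134.0 and 132.9. CARM1 had its mean at nt 163.2 after demethylase, against nt 196.2 and 197.0. VKORC1, the target of the anticoagulant warfarin, had nt 174.7 after demethylase, against nt 211.5 and 214.0, on 30 steps. ZFAND3 had the longest shift of the 5, -45.4 nt. Of these 13 regions, 8 remained called among regions with 50 or more treated steps, on CARM1, CCN1, FADD, FBXO9, NSMF, PRPF19 and ZFAND3. The others had fewer steps, so the restriction left them out and they were not retested. With coverage as deposited 0 of the 13 remained. That setting takes each table's own windows, so a difference in span between the tables adds to the IP spread. It therefore cannot decide whether the shifts hold.

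A dip between shoulders is the form that an m1A stop would give, so dips were counted, with a rule added after the data were seen, as a lowest window at 0.7 or less of the lower shoulder. In the first IP library 37 dips were found, on 29 genes. The treated profile was shallower there than the second IP library in 22 and deeper in 15. The median depth, as the lowest window over the lower shoulder, was 0.835 in treated RNA, 0.510 in the library that defined the dips and 0.732 in the second IP library. In the second IP library 36 dips were found, and the treated profile was shallower than the first IP library in 22 and deeper in 14, with medians of 0.776 in treated RNA and 0.737 in the first. The library that defines the dips is lowest there by choice, so only the treated profile and the other IP library can be set side by side. With 50 or more treated steps, dips of the first IP library had medians of 0.714 in treated RNA and 0.686 in the second, with 18 of 31 shallower. Those of the second IP library had 0.789 in treated RNA and 0.737 in the first, with 21 of 33 shallower. Shallower refers to the ratio to the shoulder and not to coverage at the dip.

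PPP3R1, the regulatory subunit of calcineurin, had a dip in both IP libraries that was shallower after demethylase. At nt 191 to 200 relative coverage was 1.01 after demethylase, against 0.468 and 0.562 in the IP libraries, on 701 steps. In EGLN1 at nt 2912 to 2921 it was 2.07 after demethylase, against 0.568 and 0.867. Both treated values lay above both IP values. In H1-10 at nt 301 to 310 the treated profile had no dip by the rule, yet its coverage there was lower, 0.447 after demethylase against 0.629 and 0.563, because its 3′ shoulder was also low. TIMP3, an inhibitor of metalloproteinases, kept its dip at nt 1063 to 1072, with 0.511 after demethylase, against 0.219 and 0.385 in the IP libraries.

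The same comparison existed in wild-type cells, and the difference of the demethylase effect, knockout minus wild type, was tested with limma on the 2687 windows held by all 4 tables, in 87 regions of 60 genes. Wild-type treated coverage was also a single sample, equal in 13270 of 13270 shared windows. Coverage was scaled to the mean of these windows, so values differ from those given above. There is thus no spread for treated RNA in either genotype, and the adjusted p-values assume that it varies like the IP libraries. The effect was higher in knockout in 142 windows (5.28%) and lower in 40 (1.49%), on 25 genes. Many of the higher windows lay on isoforms of SLIRP and NSMF, which repeat a signal. Their wild-type treated profiles had 12 to 64 steps. An unadjusted p under 0.05 was reached by 718 windows (26.7%). When either knockout IP library was left out, 0 windows remained called, so each of the 2 decides the count. Without the first wild-type IP library 54 were higher and 17 lower, and without the second 149 and 112.

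CCN1 showed opposite changes in the genotypes. Over nt 161 to 185 knockout cells had 0.375 after demethylase, against 1.71 and 1.54 in their IP libraries. Wild-type cells had 1.99 after demethylase, against 0.559 and 0.383 in theirs. The difference of the 2 effects was -3.72 on the log2 scale with a standard error of 0.335 (limma, lowest adjusted p of its windows 0.0140), on 503 treated steps in knockout and 162 in wild type. The IP profiles of the genotypes differed as well, being high there in knockout and low in wild type.

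SLIRP, a protein that stabilises mitochondrial messenger RNA, had treated coverage slightly above its IP libraries in knockout and far below them in wild type. Averaged over its 17 called windows between nt 146 and 250, which leave out 3 uncalled ones, knockout cells had 0.997 after demethylase, against 0.773 and 0.835. Wild-type cells had 0.114 after demethylase, against 1.21 and 0.970. The difference was 3.15 with a standard error of 0.342 (limma, lowest adjusted p 0.0134), on 270 treated steps in knockout and 54 in wild type.

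CHASERR, a long noncoding RNA, changed in opposite directions. Over nt 126 to 150 knockout cells had 1.48 after demethylase, against 0.755 and 0.781 in their IP libraries. Wild-type cells had 0.197 after demethylase, against 0.706 and 0.751. Over nt 26 to 55 knockout cells had 0.233 after demethylase, against 0.869 and 0.838, and wild-type cells had 1.25, against 0.874 and 0.900. Within the tested windows, nt 11 to 150, treated coverage lay further 3′ than IP coverage in knockout and further 5′ in wild type. The treated profiles had 423 and 58 steps. The knockout region ran from nt 1 to 420, and over it the mean position of coverage was not called for CHASERR. The CHASERR calls were lost with coverage as deposited.

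SOX12, a transcription factor, had a dip in the IP libraries of both genotypes. By the ratio to the lower shoulder, the treated knockout profile was deeper in 1 case and shallower in the other. The dip of the first IP library, at nt 136 to 145, had 0.619 in treated RNA, against 0.655 in the second. That of the second, at nt 131 to 140, had 0.636 in treated RNA, against 0.418 in the first. In relative coverage at nt 136 to 145, knockout cells had 0.732 after demethylase, against 0.480 and 0.608 in their IP libraries. Wild-type cells had 1.73 there after demethylase, against 0.551 and 0.565. The treated value was above both IP values in both genotypes, and the difference between genotypes in this window was not called (-1.09 on the log2 scale, standard error 0.272, limma, adjusted p = 0.103). The 2 lower windows that were called lay at the edges of this stretch, at nt 111 to 120 and nt 161 to 170. There the treated value was below both IP values in knockout and above both in wild type. The other called windows, higher in knockout, lay 5′ of the dip between nt 21 and 75, with a mean difference of 2.53. Knockout cells had 0.690 in them after demethylase, against 1.12 and 1.26 in their IP libraries. Wild-type cells had 0.0112, against 0.817 and 1.16. The SOX12 calls were lost with coverage as deposited and without the filter on low coverage.

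Of the 25 genes, 19 had 50 or more treated steps in both genotypes. NSMF, with a difference of 3.71 over nt 51 to 130, had 12 in wild type, and STK40 and NMT1 had 1 and 2. A wild-type value of 0 in these genes carries little weight. In knockout, NSMF values over that stretch were close together, 1.34 after demethylase against 1.41 and 1.44 in the IP libraries.

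**Figure D5:**
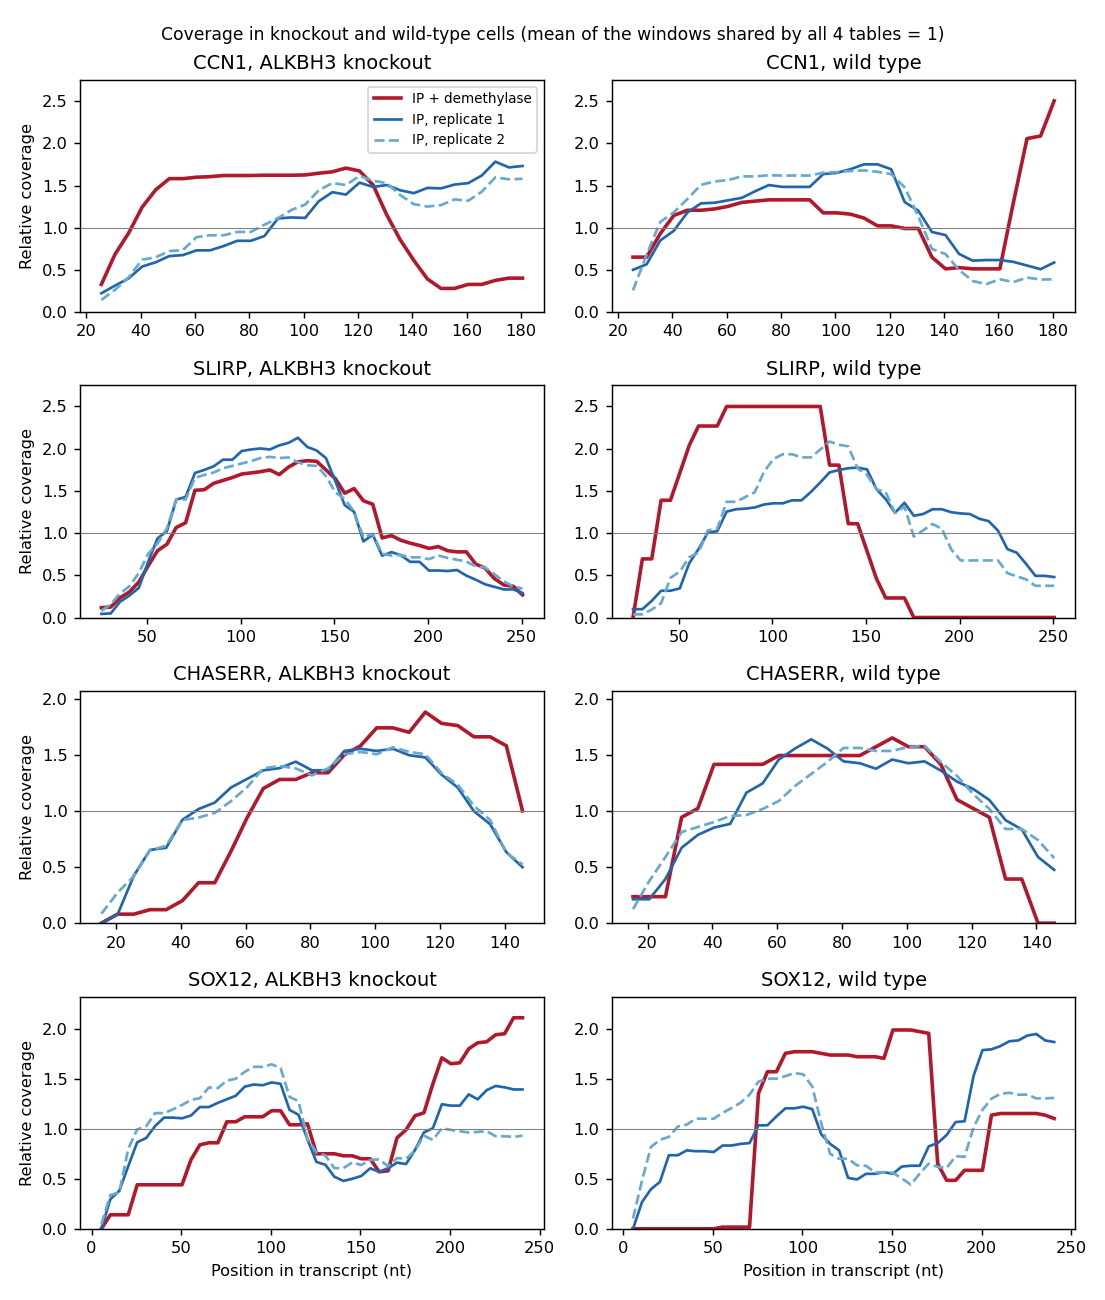
Relative coverage (vertical axis, mean of the windows shared by all 4 tables = 1) against position in the transcript in nt (horizontal axis) for CCN1, SLIRP, CHASERR and SOX12, in ALKBH3 knockout cells on the left and wild-type cells on the right, with 1 line each for treated RNA and the 2 IP libraries. At nt 161 to 185 of CCN1 the treated line averages 0.375 in knockout and 1.99 in wild type.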

How the data were processed

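Per the submitters' processing notes, Trim Galore, HISAT and MACS2 and the build hg19 were used; versions and order are not given in the sources used here. Per the labels' protocols, polyadenylated RNA was reverse transcribed with AMV reverse transcriptase at 0.2 mM dNTP. Per the file headers, the deposited windowed tables give the coverage signal of treated and IP libraries, scaled by the authors to a sum of about 200 per region, and a score that equals treated minus IP. The deposited MACS2 lists hold a pileup signal, a fold enrichment ratio and a −log10 q-value per peak; only the fold was printed. Positions are on RefSeq transcripts; exons and untranslated regions are not analysed here. Only gene symbols were taken from RefSeq's GRCh38.p14 table, which held 762 of the 775 transcripts.

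Windows were matched by transcript and start, divided by the region's mean and compared as log2 with a pseudocount of 0.1. limma 3.58.1 in R 4.3.3 was fitted over all windows or regions with Benjamini-Hochberg adjustment at 0.05, two-sided, and tested on simulated data. The ratio of central to outer coverage had 1 percentage point added to each share. Regions needed 10 or more windows. Named genes were, by rule, the 12 highest and 10 lowest runs with relative coverage of 0.5 or more in the higher arm, the 5 largest and 5 smallest shape differences, and up to 2 members per gene list; genes added afterwards are said to be so, and those of the region and genotype tests were picked among the called ones. The members and lists were chosen with earlier results of these data known. The rule counted treated coverage as 1 sample, and it was checked by rescaling to a tolerance of 1e-12. Columns left unused numbered 0. Some genes that the rule names are left out of the text.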

Additional observations from a re-analysis of the deposited data

Results flagged for a closer look

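The demethylase effect differed between knockout and wild type by a limma interaction. It was higher in knockout in 142 of 2687 windows and lower in 40. Isoforms of SLIRP and NSMF, with 12 to 64 treated steps in wild type, gave many of the higher ones. The windows overlap and lay on 25 genes, and 0 remained called without either knockout IP library.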

How the results depend on the processing

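No paired analysis was possible because the treated coverage of the 2 knockout tables is 1 profile up to scale. The limma window test stayed at 0 calls in each of the 6 alternatives run. It was not run without an IP library, which leaves no residual degrees of freedom. Shape differences were not run as deposited, since the tables span different windows. The central part and the mean position were run as deposited over each table's own windows. Differences in span therefore enter those results. The alternatives of windows matched within 2 nt and of 50 or more treated steps were chosen after seeing the data; the cause of the changes was not tested. The 422 higher and 1258 lower windows became 80 and 272 with a pseudocount of 0.5, 1219 and 3800 (of 73113) when windows were matched within 2 nt, 1432 and 2713 at 1.5-fold, and 71 and 482 at 3-fold. Lower windows numbered 811 with 50 or more steps. Against 1 IP library at a time there were 753 to 839 higher and 1718 to 1812 lower windows. The 560 regions of larger treated difference became 1453 of 2104 when matched within 2 nt. For the central part of a region, the 1 higher and 13 lower regions became 0 and 1 as deposited, 20 and 43 with 1 transcript per gene, 3 and 28 within 2 nt, and 0 and 1 with 50 or more steps. For the mean position, the 8 and 5 regions became 0 and 0 as deposited, 19 and 14 with 1 transcript per gene, and 72 and 86 within 2 nt. For knockout minus wild type, the 142 higher windows became 73 with a pseudocount of 0.5, 66 without the filter, 31 as deposited and 89 with 1 transcript per gene, and 0 to 149 without 1 IP library. The 40 lower windows became 5 as deposited and 23 with 1 transcript per gene, and 0 to 112 without 1 IP library. Of 22 runs of single genes, none changed sign in the 4 alternatives run for them. The runs were chosen as 2-fold or more from each IP library. Leaving out either IP library or raising the pseudocount therefore cannot change their sign, and only coverage as deposited could. In size, 21 moved with a pseudocount of 0.5 and 8 as deposited, and 0 without either IP library.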
